A study of Saccharomyces cerevisiae with 177 samples.

Results

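The genes described here are the 137 cytoplasmic ribosomal protein genes of the budding yeast Saccharomyces cerevisiae. They were chosen by name: every gene whose standard name starts with RPL or RPS and a digit, with the 5 genes of the ribosomal stalk, RPP0, RPP1A, RPP1B, RPP2A and RPP2B. All 137 were among the 5794 genes measured. The set held 76 RPL genes of the large subunit, 56 RPS genes of the small subunit and the 5 stalk genes. In the reference annotation 89 of them have an intron in the coding sequence, 118 form 59 pairs of copies named A and B, and 19 have a single copy. They lie on 15 chromosomes, and their coding sequences run from 78 to 1164 bases with a median of 432.

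Ribosomal protein genes are among the most heavily transcribed genes of growing yeast, and their output is matched to growth through the TORC1 and protein kinase A pathways. At most of their promoters the general regulatory factor Rap1 binds upstream and recruits the activators Fhl1, Ifh1 and Sfp1, while a minority use Abf1 or Reb1 instead. RNA polymerase II is then loaded with the general factors TFIID and TFIIH and with Mediator, a complex of a head, a middle, a tail and a dissociable kinase module, which links activators to the polymerase.

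RNA made within 5 min of 4-thioU labelling was purified and sequenced, in 177 libraries that fall into 60 groups. The question posed by the design is how far new transcription depends on each part of Mediator. All strains were MATalpha, with the ade2, his3, leu2, lys2, met15, trp1 and ura3 markers, and grew in synthetic complete medium at 30 °C. Replicates carry the letters A, B and C, and no label says whether they were separate cultures, so a p-value below measures the spread between these libraries, which may be technical.

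In 22 comparisons a strain with a factor fused to an auxin-inducible IAA7 degron was treated with 3IAA (3-indoleacetic acid, which triggers breakdown of the tagged protein) and set against the same strain in DMSO. Treated and control cells of these strains alike carried the plant F-box protein OSTIR under the GPD1 promoter. Levels of the tagged proteins are not given in the sources used here, so how far each was depleted is not known. Loss or depletion of a tagged factor below names the treatment of its degron strain. The strains named CCL1, CDK8 (gene SRB10), Med1, Med1_5, Med2_15, Med5, Med7, Med10, Med12, Med14, Med14C, Med15, Med16 and Med17 also carried RPB3-3xFlag, while Med9, Med19, Med31, Med7C, Med7N, TID, Med15_Med16 and Med15_Taf1 did not. Names with 2 factors had a degron on both. Plasmids supplied a subunit as 2 pieces in Med7C, Med7N and TID, and the piece in the name was the tagged one. Med14C had a tagged MED14 and a tagged plasmid-borne copy, so its changes cannot be assigned to 1 part of Med14. For Med31 the titles name Med31 but the genotype field names MED19, and the titles were followed. In 6 further comparisons, mutants without any degron treatment were set against a control strain: med15del (gal11 deleted) and med16del (sin4 deleted) against the same WT libraries, med7N_del (a plasmid with med7ΔN) and Med7_EWE3 against the same Med7_WT libraries, Med21_EWE4 against Med21_WT, and Med6_delH1 (helix 1 of Med6 deleted) against Med6_WT. The last 4 supplied the subunit, mutant or wild type, from a plasmid. In 4 comparisons the Med15 degron strain was used: the stresses labelled HS and SM, each in DMSO, were set against the same no_stress libraries, and IAA was set against DMSO within HS and within SM. Groups held 3 libraries, except Med7_EWE3, Med21_EWE4 and Med21_WT with 2.

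Per gene, the files of 162 libraries held a signal scaled by the authors on a basis not given in the sources used here, and the 15 stress libraries held counts. Whole reads could be recovered from the signal of 106 libraries, with totals from 2119024 to 10711585, and the counts of the stress libraries totalled 4384651 to 10032201. The depth of the other 56 is not known. Ribosomal protein genes took a mean of 1.42% (Med17 in DMSO) to 4.89% (Med7 in 3IAA) of the library total. Over the 137 genes, the control profiles of the Med7, Med14 and Med15 experiments correlated at 0.97 to 0.99 with each other but only at 0.50 to 0.69 with the other controls, which correlated at 0.76 to 1.00 among themselves. Changes were therefore computed only within an experiment, and levels pooled over experiments are given as a description. On the CPM scale, which gives every library the same total, the sum of the alpha-cell markers was 1157 to 6445 in the control groups, against 5.05 to 22.7 for the a-cell markers. In med15del the signal of GAL11, which encodes Med15, was 1.05, 0.70 and 0.66 against 80.9, 78.9 and 83.2 in WT, and in med16del that of SIN4, which encodes Med16, was 0.13, 0.17 and 0.13 against 24.6, 23.5 and 25.2.

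**Figure D1:**
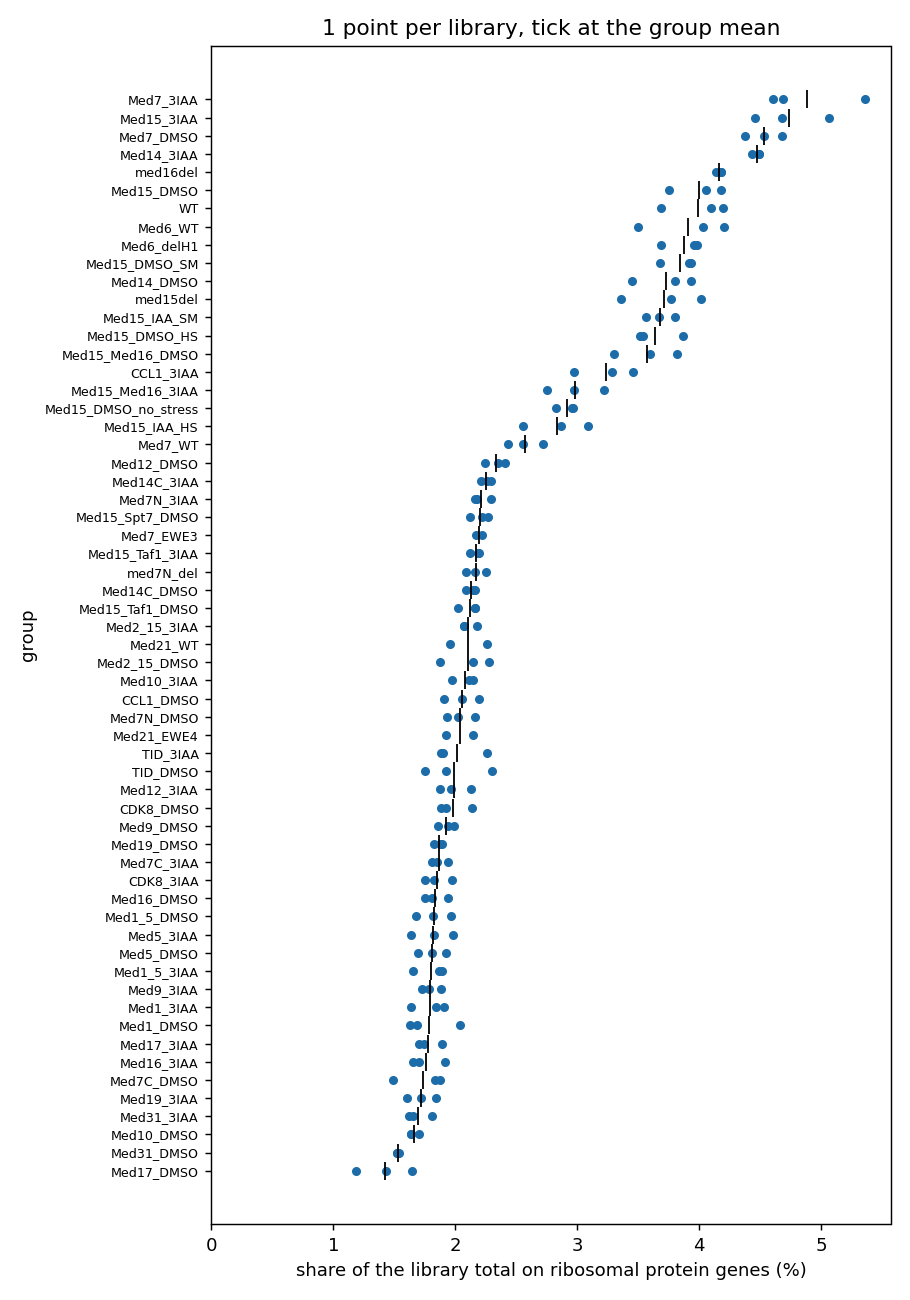
Share of the library total on the 137 ribosomal protein genes in percent (horizontal axis) for each group (vertical axis, sorted by mean), with 1 point per library and a tick at the group mean. Group means ran from 1.42% in Med17 in DMSO to 4.89% in Med7 in 3IAA, and the 5 highest means were those of Med7 in 3IAA, Med15 in 3IAA, Med7 in DMSO, Med14 in 3IAA and med16del.

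Each change below is a log2 ratio of treated to control with its standard error (SE), on log2 of signal plus 1, which understates the change of low genes. A gene was called at an adjusted p under 0.05 from limma over all genes tested (from edgeR for the stress counts). A gene was tested where its mean signal was at least 10. The deposited scale includes any shift shared by all genes. A second value, called relative, was fitted after TMM scaling, which sets the typical gene to no change. In these bulk libraries fewer labelled cells and less new RNA per cell cannot be told apart. Of the 137 genes, 108 were tested in all 32 comparisons, and between 111 (Med17) and 137 were tested in any of them.

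The ribosomal protein genes fell with almost all other genes when Ccl1, Med10, Med14, Med17, Med19 or Med15 with Taf1 was depleted, and in the treated Med14C strain, with medians between −1.19 and −2.46. In some comparisons their median lay more than 0.2 from that of all genes. It was the higher of both after loss of Ccl1, Med10 and Med17, where all fell. It was the lower in the 2 mutants of Med7 given from plasmids, where all fell, in med15del, where most genes rose, and after loss of Med12. Most members also fell after combined loss of Med15 and Med16, where the median of all genes was −0.02. The stress counts were compared only after TMM scaling, so their changes are relative to the typical gene. There most members fell after loss of Med15 in HS, where the median of all genes was 0.01, and most rose in HS and in SM.

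**Figure D2:**
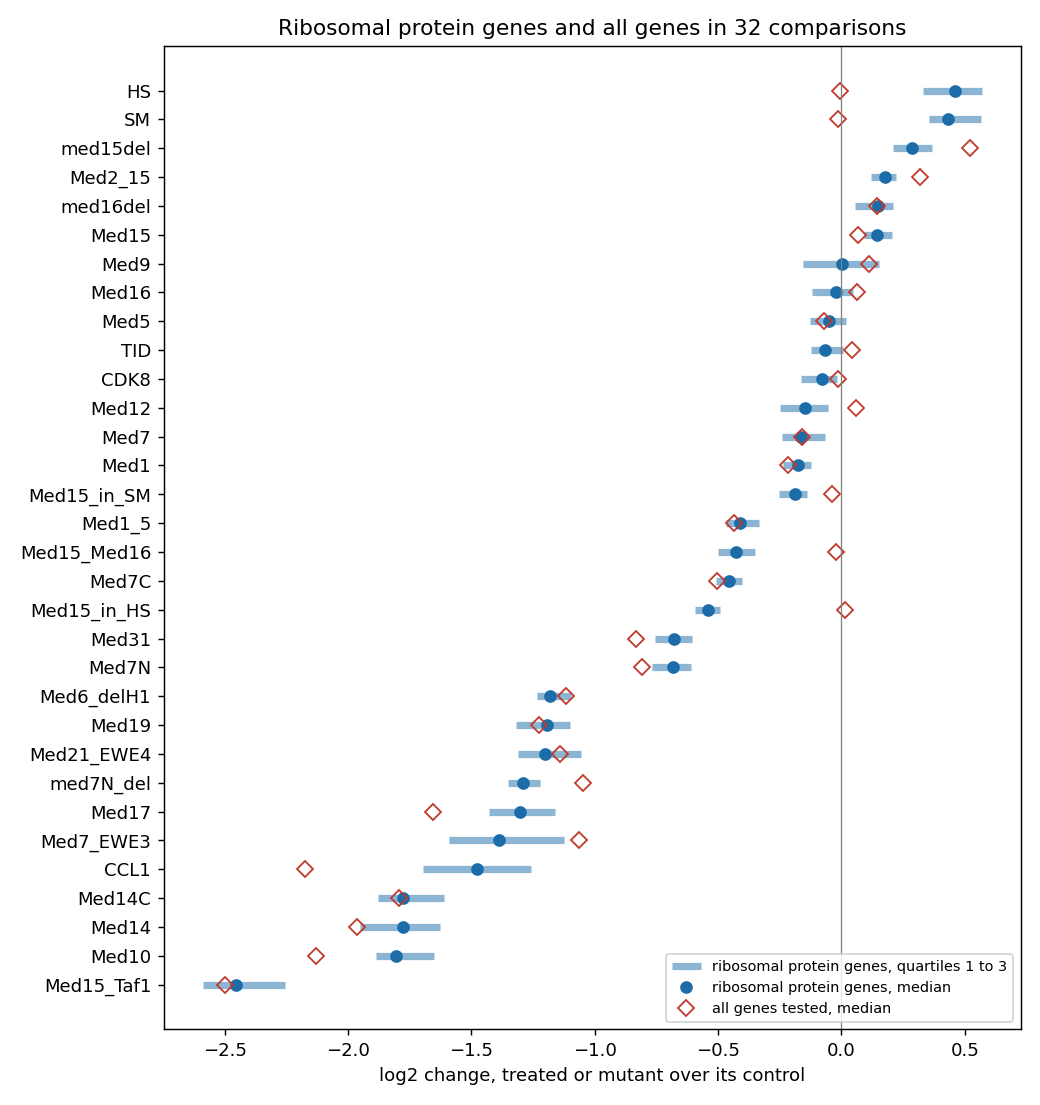
Log2 change (horizontal axis) in 32 comparisons (vertical axis, sorted by the median of the ribosomal protein genes). The 4 stress comparisons are on TMM-scaled counts and the others on the deposited scale. Filled points are medians of the ribosomal protein genes tested, bars their quartiles, and diamonds the median of all genes tested; the largest gap is after depletion of Ccl1, at −1.48 against −2.18.

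Ccl1 is the cyclin of TFIIH and activates the kinase that phosphorylates the tail of RNA polymerase II. After its depletion all 121 members tested were lower, against 99.8% of all genes. Their median was −1.48 (quartiles −1.70 to −1.26), while that of 268 other genes of like coding length was −2.53. Relative to all genes, 111 of the 121 were higher, against 36.5% of all genes, and 2 were lower (RPL15B and RPL31B), against 38.1%. Their share of the library total was 3.24% ± 0.25 (SD, n = 3) against 2.05% ± 0.14 in DMSO, with no overlap.

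The genes that kept most signal without Ccl1 were RPL22A, RPS13 and RPL30. RPL22A, 1 of a pair of copies of a large subunit protein, gave 20.2, 21.6 and 16.7 against 27.3, 23.5 and 29.7 in DMSO. This was a log2 change of −0.45 ± 0.11 (limma, adjusted p = 0.00131), and the libraries did not overlap. RPL30, whose protein is known to inhibit splicing of its own transcript, gave 19.6, 19.4 and 14.2 against 23.5, 26.8 and 30.6, a change of −0.58 ± 0.13. RPS13, a single-copy small subunit gene, changed by −0.56 ± 0.10. At the other end, RPL15B gave 2.74, 3.01 and 2.97 against 25.9, 27.6 and 25.2 (−2.80 ± 0.09), RPL31B changed by −2.52 ± 0.10 and RPL10, a late-joining protein near the peptidyl transferase centre, by −2.32 ± 0.10. The copies of a pair thus parted: RPL15A changed by −1.62 ± 0.09 and RPL31A by −1.18 ± 0.09. In the 46 pairs with both copies tested, 4 differed by more than 1 on the log2 scale, and the median difference was 0.32.

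Depletion of the Mediator scaffold Med14 lowered all 134 members tested, against 99.7% of all genes, with a median of −1.78 against −1.96. On the relative scale 63 were higher, against 29.9%, and 2, RPL8A and RPL31B, were lower, against 27.5%. Loss of Med10, of the middle module, lowered all 127 (99.8% of all genes), with a median of −1.81 against −2.13; relative to all genes 95 were higher (35.8%) and 5 lower (36.7%), namely RPL31B, RPL10, RPS23A, RPL8A and RPL15B. The Med14C strain gave 129 of 129 lower (99.9%), and relative calls of 37 higher (33.9%) and 14 lower (31.7%). Loss of Med17, of the head, lowered all 111 tested (99.7%), and 79 were higher and none lower relative to all genes (29.6% higher and 25.9% lower). The 26 members not tested after Med17 loss fell below the mean signal of 10, so these counts do not cover the lowest genes.

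After Med14 loss RPL18B and RPS14B were among the members that fell least and RPL8A among those that fell most. RPL18B, a copy of a large subunit gene, had signal of 16.1, 21.3 and 18.9 after Med14 depletion against 24.4, 30.0 and 33.2 in DMSO. This was −0.61 ± 0.16 and, relative to all genes, 1.40 ± 0.18 (limma, adjusted p = 0.000271). All 3 treated libraries lay under all 3 controls. RPS14B, whose expression is known to be held down by its own protein, gave 15.8, 12.4 and 12.8 against 21.2, 24.2 and 29.0 (−0.81 ± 0.16). RPL8A, a copy of another large subunit gene, gave 46.8, 32.5 and 32.9 against 242, 231 and 257, a change of −2.69 ± 0.17, while RPL8B changed by −1.95 ± 0.17. In the relative fit RPL8A lay below the typical gene, at −0.63 ± 0.10 (adjusted p = 0.000679), and RPL8B at 0.10 ± 0.08.

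After Med10 loss RPS14B, RPS11B and RPL18B fell least, by 0.72, 0.92 and 1.02, and RPL10, RPL31B and RPL8A most, by 2.51, 2.49 and 2.44. In the Med14C strain the first group changed by −1.02 ± 0.10, −1.11 ± 0.08 and −1.21 ± 0.09, and RPL8A by −2.35 ± 0.08. RPS11B, a copy of a small subunit gene, gave 30.8, 26.6 and 29.5 against 51.8, 58.8 and 56.5 in the Med10 experiment. After Med17 loss the order was another: RPS12 fell least (−0.51 ± 0.11), then RPL7B (−0.72 ± 0.11) and RPL22B (−0.73 ± 0.11), and RPS14B was not tested. Over the 32 comparisons, RPL30 was among the 10 highest changes of the members in 17, RPL18B in 16 and RPS11B in 13. RPL10 was among the 10 lowest in 18, RPL8A in 16 and RPS31, which encodes a fusion of ubiquitin to a small subunit protein, in 11. Some of the comparisons share libraries, and in some no member was called, so these tallies are not of independent comparisons.

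**Figure D3:**
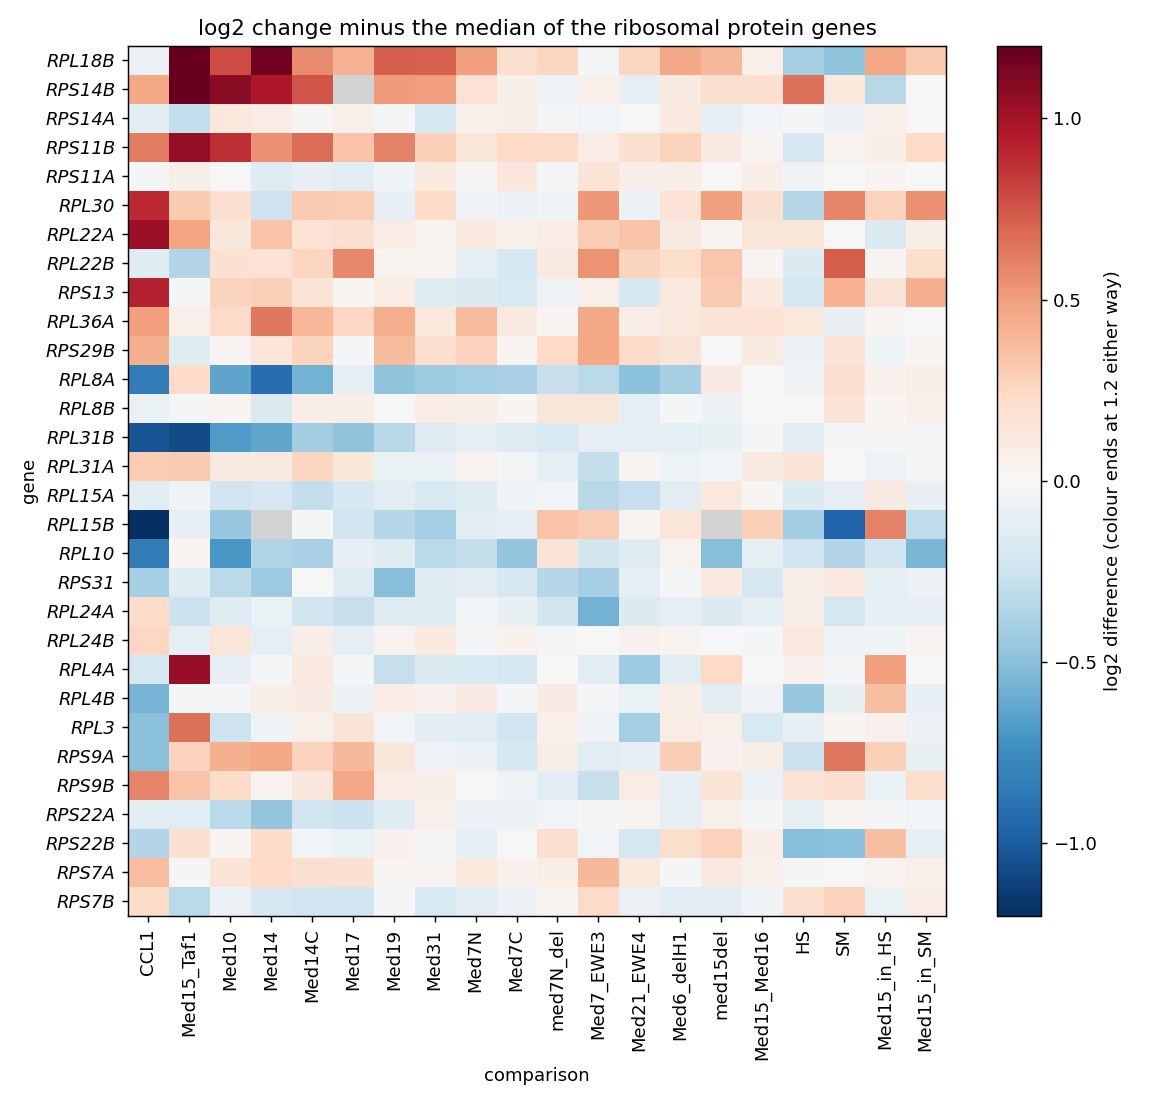
Log2 change of each gene minus the median of the ribosomal protein genes (colour, ending at 1.2 either way) for chosen genes and their copies (vertical axis) in 20 comparisons (horizontal axis); grey marks a gene that was not tested. RPL18B, RPS14B and RPS11B are red, and RPL8A, RPL31B and RPL10 blue, in most Mediator depletions, while RPL8A turns red after loss of Med15 with Taf1.

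Since copies of 1 protein behaved unlike each other, the upstream sequences of the RPL8 and RPS14 pairs and of RPL18B are shown, for the 300 bases from 400 to 101 before the start codon, 5′ to 3′ on the gene's strand. They were read from the RefSeq R64 genome, the assembly also known as sacCer3. Capitals mark matches, on either strand, to letters of the Rap1 site (CCNTACA, or CACCC and CA with any 3 bases between them), of the Abf1 site (TC and ACGA with any 7 bases between them), of the Reb1 site (TTACCCG) and TATAAA or TATATA. The windows were RPL18B at chrXIV:64663-64962 (minus strand), RPL8A at chrVIII:36126-36425 (minus), RPL8B at chrXII:48730-49029 (minus), RPS14A at chrIII:178321-178620 (minus) and RPS14B at chrX:73387-73686 (plus).
RPL18B: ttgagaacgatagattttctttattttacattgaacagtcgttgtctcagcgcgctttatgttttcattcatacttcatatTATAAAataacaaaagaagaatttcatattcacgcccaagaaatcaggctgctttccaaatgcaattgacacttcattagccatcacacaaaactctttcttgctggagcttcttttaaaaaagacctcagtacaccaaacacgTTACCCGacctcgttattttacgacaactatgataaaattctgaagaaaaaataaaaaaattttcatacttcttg
RPL8A: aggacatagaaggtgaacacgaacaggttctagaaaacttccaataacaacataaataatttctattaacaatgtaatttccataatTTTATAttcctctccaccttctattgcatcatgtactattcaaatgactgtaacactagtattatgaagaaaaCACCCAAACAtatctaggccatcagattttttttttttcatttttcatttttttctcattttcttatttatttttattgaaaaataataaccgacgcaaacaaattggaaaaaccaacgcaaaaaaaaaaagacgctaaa
RPL8B: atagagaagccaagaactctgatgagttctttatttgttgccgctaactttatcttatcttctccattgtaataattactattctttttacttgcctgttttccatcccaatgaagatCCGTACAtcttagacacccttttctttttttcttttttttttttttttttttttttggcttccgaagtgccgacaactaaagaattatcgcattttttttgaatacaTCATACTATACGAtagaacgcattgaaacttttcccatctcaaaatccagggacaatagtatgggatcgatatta
RPS14A: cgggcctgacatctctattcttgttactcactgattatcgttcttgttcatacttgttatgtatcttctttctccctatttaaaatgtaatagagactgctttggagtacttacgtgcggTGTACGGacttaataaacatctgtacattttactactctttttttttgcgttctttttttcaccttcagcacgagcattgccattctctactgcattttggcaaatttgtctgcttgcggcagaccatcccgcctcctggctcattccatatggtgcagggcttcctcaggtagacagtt
RPS14B: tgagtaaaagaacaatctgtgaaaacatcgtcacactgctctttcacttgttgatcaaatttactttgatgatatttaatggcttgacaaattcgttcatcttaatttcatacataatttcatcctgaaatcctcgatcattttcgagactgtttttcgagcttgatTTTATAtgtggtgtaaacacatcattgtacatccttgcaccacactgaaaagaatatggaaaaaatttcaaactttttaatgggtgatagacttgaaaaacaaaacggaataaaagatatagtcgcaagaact
RPL8A, RPL8B and RPS14A hold Rap1 letters in this window, in RPL8B and RPS14A only as CCNTACA. The letters CCNTACA and TTACCCG were added after these sequences were seen, so a contrast between these genes that rests on them is only a description. RPL18B holds 1 match to the Reb1 letters and 1 TATA match, and RPS14B 1 TATA match, with no Rap1 letters in either. RPL8A holds 1 TATA match as well. RPL8B also holds 1 Abf1 match. A match is a string of letters and not a measured binding site. Of the 137 members, 36 (26.3%) held the longer Rap1 letters, against 3.07% of the same windows of all 5792 annotated genes, and 67 (48.9%) held CCNTACA, against 11.0%. The Abf1 letters stood in 15 (10.9%, against 14.6%), the Reb1 letters in 6 (4.38%, against 9.20%) and a TATA match in 52 (38.0%, against 58.6%). Windows overlap where genes lie close, and TATA matches can overlap each other. Grouped by these letters, the members differed little after Med14 loss. The median was −1.75 for genes with Rap1 letters, −1.71 for those with Abf1 or Reb1 letters only and −1.82 for those with neither. Other comparisons are not given by these groups here.

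The balance of the copies was then followed as log2 of A over B within each library, which does not depend on the scaling between libraries. In the RPS22 pair, whose B copy overlaps a snoRNA gene on its strand, it was 2.13 ± 0.03 (SD, n = 3) in the DMSO libraries of Med14 and 1.43 ± 0.35 in 3IAA. It went from 0.18 ± 0.08 to −0.47 ± 0.13 after loss of Med16, and from 1.32 ± 0.16 to 1.84 ± 0.04 in SM. Treated and control libraries did not overlap in 16 of 32 comparisons, with A lower in 12 and higher in 4, which were Med9, Med21_EWE4, HS and SM. The RPL8 pair went from 0.92 ± 0.03 to 0.18 ± 0.17 after Med14 loss. It lay apart in 19 of 32, with A lower in 15 and higher in 4, namely Med9, Med15_Taf1, med15del and med16del. The control libraries of med15del and med16del are the same, as are those of HS and SM and those of med7N_del and Med7_EWE3, so these counts are not of independent comparisons. Beside them stand the counts for all pairs, for instance 28 of 57 pairs apart after Med14 loss, 32 of 57 after Med15 with Taf1, and 12 of 58 after Med15.

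**Figure D4:**
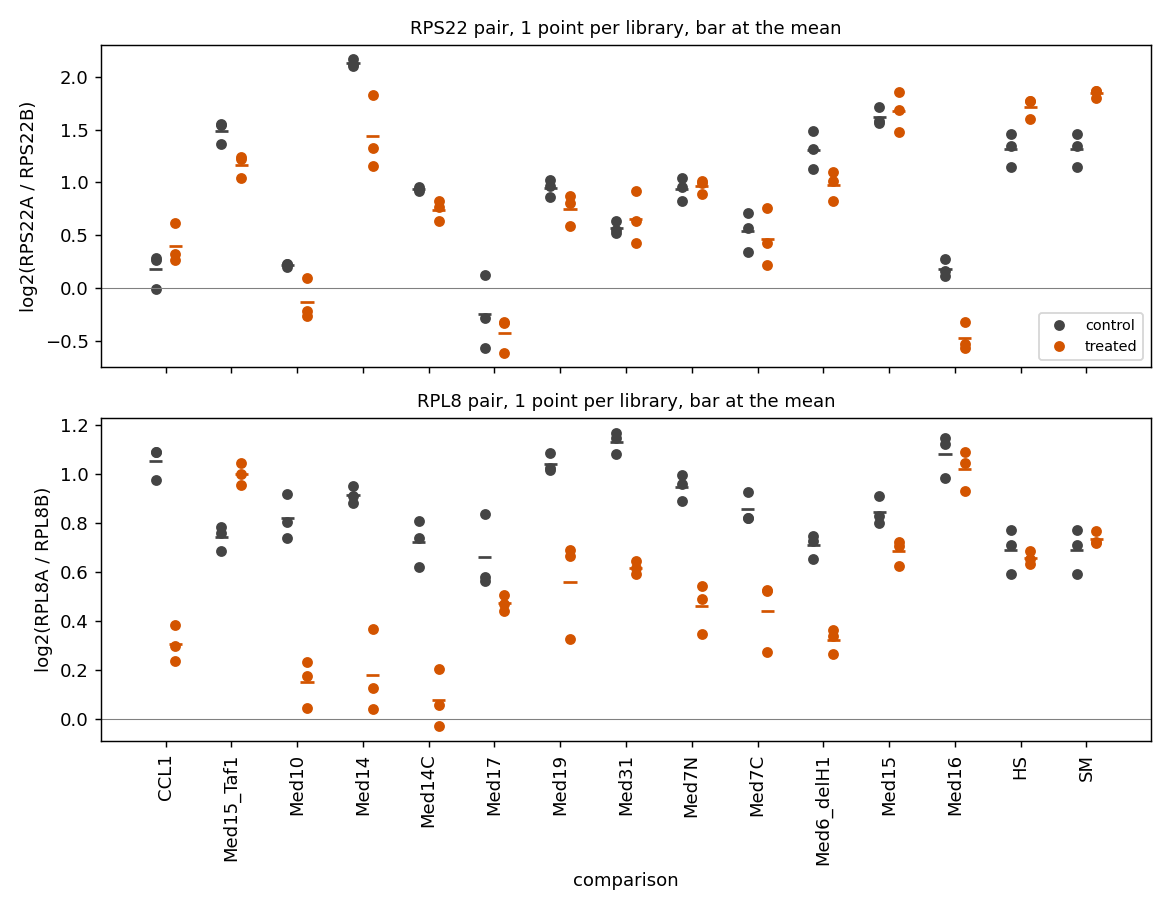
Log2 of the A over the B copy (vertical axis) for the RPS22 pair (top) and the RPL8 pair (bottom) in 15 comparisons (horizontal axis), with 1 point per library and a bar at the group mean; control libraries are dark and treated ones orange. The RPS22 ratio lies lower in the treated libraries of Med14, Med10 and Med16 and higher in HS and SM, and the RPL8 ratio rises after loss of Med15 with Taf1, from 0.74 to 1.00.

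Among the pairs described here, the median difference between copies over all comparisons is given for RPS28 (0.23, with both copies tested in only 9), RPL15 (0.22), RPS22 (0.22), RPS7 (0.22) and RPL8 (0.19). In the RPS7 pair A was higher in 10 of the 13 comparisons with libraries apart. RPS28B, whose mRNA decay is known to be set by its own protein, was tested in the fewest comparisons of all members. The RPS14 ratio fell by 1.72 after Med15 with Taf1 and by 0.66 in HS. The coding sequences of the 59 pairs share a median of 93.2% identity, from 69.2% (RPP1) to 99.4% (RPL1), and 40 pairs share a run of at least 50 identical bases. How reads that match both copies were counted is not given in the sources used here, so a shift within a near-identical pair is uncertain in size: RPL8 copies are 95.1% identical and RPS14 copies 92.1%. RPL4 copies are 98.9% identical, RPS6 copies 99.2% and RPS4 copies 98.1%, so values given for single copies of these are uncertain too.

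Taf1 is the largest subunit of TFIID, the factor that most ribosomal protein promoters use. After loss of Med15 with Taf1, all 135 members tested were lower, against 99.9% of all genes, with a median of −2.46 against −2.50. After scaling to all genes 53 were higher, against 38.4%, and 19 lower, against 36.7%. The ends of the order were far apart, from −3.53 to −0.96. RPL31B, whose protein sits at the exit tunnel, gave 9.30, 8.96 and 8.66 against 118, 115 and 109.9, a change of −3.53 ± 0.08. RPL18B gave 27.1, 25.8 and 26.8 against 50.5, 51.1 and 56.7, or −0.96 ± 0.08. Neither gene had overlapping libraries.

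RPS14B fell by 1.03 and RPS14A by 2.75 in the same libraries. RPL8A fell by 2.22 and RPL8B by 2.48, the reverse of their order after loss of Med14 or Med10. RPL4A, whose protein lines the exit tunnel, gave 31.5, 29.5 and 31.0 against 73.8, 88.7 and 88.1, a change of −1.41 ± 0.08 and 1.17 ± 0.07 relative to all genes. RPL3, a protein close to the peptidyl transferase centre, changed by −1.80 ± 0.08. RPL4A and RPL3 did not stand out in this way after Med14 loss, where they changed by −1.80 ± 0.16 and −1.83 ± 0.16.

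Set against Med15 loss alone in a difference of the changes, loss of Med15 with Taf1 gave lower values for all 137 members (99.8% of all genes). The Med15 controls, like those of Med14, are among the 3 whose profile over these genes differed from the other controls, and its part in this and the following differences was not tested. On the relative scale 23 differed upward (26.5%) and 12 downward (23%). RPS14B (1.51 ± 0.18), RPL18B (1.47 ± 0.12), RPL4A (1.13 ± 0.13) and RPL3 (1.05 ± 0.11) led upward and RPL31B downward (−1.27 ± 0.10). The same difference for Med14 gave 135 of 135 lower (99.4%), with 19 upward (18.5%) and 4 downward (16.9%) on the relative scale. For Ccl1 against Med14, 38 members differed upward and 4 downward, against 3.79% and 14.9% of all genes. On the relative scale these were 66 (13.4%) and 4 (10.5%). RPL30 (1.45 ± 0.22), RPL39 (1.43 ± 0.22), whose small protein lines the exit tunnel, and RPS15 (1.01 ± 0.16) kept more signal after Ccl1 loss, and RPL15B and RPL18B less, both by −0.94. The mean signal for this difference was taken over both experiments, so 135 members were tested, against 121 for Ccl1 loss itself. The fall of a low member is understated. Where the signal was low in the Ccl1 experiment, an upward difference from Med14 can therefore be too large. How far this holds for the genes named here was not tested.

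Loss of Med19, Med31 or a part of Med7 lowered the members by smaller amounts. Med19, of the middle module, gave 128 of 128 lower (97.7%), with a median of −1.19, and relative calls of 12 higher (21.8%) and 9 lower (19.1%). The relative calls were 35 without 3IAA library A, 11 without DMSO library C and, with most of them then lower, 18 without 3IAA library C. Here RPL18B gave 18.2, 21.0 and 16.1 against 23.3, 29.3 and 24.8 (−0.46 ± 0.16), while RPS31 gave 40.3, 33.4 and 34.8 against 122, 124 and 114 (−1.71 ± 0.15). The Med31 libraries had 126 of 128 lower (97.3%), and relative calls of 20 higher (18.2%) and 2 lower (19.9%), which were RPL15B and RPL8A. These 22 became 9 without 3IAA library A, 12 without 3IAA library B and 6 without DMSO library B. RPL18B and RPS14B were the 2 not called: RPL18B gave 21.8, 17.3 and 13.2 against 19.6, 14.6 and 16.4, which overlap, a change of 0.03 ± 0.15.

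Med7N had 125 of 126 lower (99.2%), with a median of −0.68 against −0.81, and Med7C 127 of 127 (95.2%), with −0.46 against −0.50. RPL18B was the member not called in Med7N, at −0.19 ± 0.11. On the relative scale Med7N had 38 members higher (21.9%) and 2 lower (20.2%), RPL8A and RPL10, and the 40 became 22 without 3IAA library A and 21 without DMSO library A. Med7C had 1 higher, RPS11B (9.15%), and 1 lower, RPL10 (14.8%). With the replicate letter as a block, which pairs the libraries of Med7C, its relative calls were 14. Between Med7C and Med7N the changes of 9 members differed upward (30.9%) and none on the relative scale (7.01% of all genes in either direction), and with the block 55 differed on the deposited scale. The tagged whole Med7 gave a small response in comparison, with 3 members lower (9.01%), RPL4A, RPL3 and RPL28, and 1 on the relative scale (5.91%), RPL4A. How far Med7 was depleted is not known. RPL4A gave 46.9, 55.6 and 59.7 against 82.2, 99.0 and 81.8, a change of −0.69 ± 0.18, but its call was lost without 3IAA library A or DMSO library B and with no filter on low signal.

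Loss of the tail subunit Med15 alone called 0 of 136 members on the deposited scale, against 5.11% of all genes, and 0 on the relative scale (9.15%). At an unadjusted p under 0.05 there were 2 and 8, against 470 and 882 of all 4088 genes tested. The median was 0.14 against 0.07. The members nevertheless took a larger share of the library total, 4.68%, 4.46% and 5.07% in 3IAA against 4.06%, 4.18% and 3.76% in DMSO, without overlap (4.74% ± 0.31 and 4.00% ± 0.22, SD, n = 3). Without DMSO library A, 20 were called, and with the replicate letter as a block 16 were called on the relative scale. For fits with a block or without a library, here and elsewhere, the share of all genes is not given. RPL1A, the member with the highest change, gave 36.2, 42.4 and 36.1 against 30.7, 30.7 and 17.9, where 1 control library was far under the others (0.55 ± 0.20, adjusted p = 0.0919). Loss of Med16 likewise called 0 of 135 (2.34% of all genes). At an unadjusted p under 0.05 there were 3, against 410 of all 4871 genes tested. The edgeR fit on recovered reads called 0 members, and the block 6.

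On the relative scale Med16 loss lowered 8 members (3.61%), led by RPL10 with 209.97, 178 and 181 against 305, 284 and 242 (relative change −0.61 ± 0.06, adjusted p = 0.00247). The others were RPL36B, RPL3, RPS11B, RPL6A, RPS18B, RPL8A and RPL5, and the block gave 26. Only RPL10, RPL36B and RPS11B had libraries that did not overlap on the deposited scale. The count was 3 without 3IAA library A, 4 without DMSO library A and 2 without DMSO library B.

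When Med15 and Med16 were depleted together, 121 of 137 members were lower, against 15.9% of all genes. Their median was −0.43, while that of all genes was −0.02 and that of 454 other genes of like coding length was 0.03. On the relative scale 121 were again lower, against 24.6%. The members took 2.98% ± 0.24 (SD, n = 3) of the library total in 3IAA and 3.57% ± 0.26 in DMSO. RPL20A, a large subunit gene, gave 107, 124 and 111 against 193, 176 and 167, a change of −0.64 ± 0.12 (adjusted p = 2.26e-06). RPS31 gave 163, 201 and 168 against 320.3, 244 and 258 (−0.62 ± 0.12), and RPL3 gave 367, 358 and 358 against 581, 592 and 489.7 (−0.61 ± 0.13). In all 3 genes every treated library lay under every control library. RPL39 (−0.12 ± 0.12), RPL15B (−0.14 ± 0.12) and RPS4A (−0.16 ± 0.12) were not called. Without 3IAA library A the count was 63, and without DMSO library A it was 80.

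Med2 with Med15, both of the tail, gave 14 of 137 members higher (44.6% of all genes), with a median of 0.18 against 0.32. Set against all genes, 2 were lower (7.1%), RPL10 and RPS30B. RPL10 gave 411, 441 and 410.5 against 507, 489 and 469.8, and its relative change was −0.54 ± 0.11 (adjusted p = 0.0201). The counts turned on single libraries: without DMSO library C they were 48 and 41, and without any other library at most 2 and 0. With the replicate letter as a block they were 30 and 25.

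In the kinase module, loss of Med12 lowered 11 members (4.84%) and, relative to all genes, 57 of 129 (14.4%), with a relative median of −0.23. RPL10 led with 94.8, 80.9 and 91.0 against 137, 121 and 118, a change of −0.49 ± 0.08 (adjusted p = 0.00169), with no overlap. RPS12 (−0.40 ± 0.11) and RPL3 (−0.37 ± 0.09) followed. Without 3IAA library B the counts were 1 and 23, and without 3IAA library A the first was 4. Loss of CDK8 lowered 2 members (4.92%), RPL4A and RPL10, and 5 on the relative scale (8.23%), with RPL3, RPL2A and RPP0, the base of the stalk, added to them. RPL4A gave 40.8, 33.5 and 31.3 against 57.5, 43.3 and 45.0, and its call was lost without any of 4 libraries (3IAA B or C, DMSO A or C).

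Loss of Med1 lowered 27 of 132 members (36.2% of all genes), by at most 0.36. None was called relative to all genes (6.83% in either direction). On that scale 0 had an unadjusted p under 0.05, against 940 of all 4703 genes tested. The 27 became 45 without DMSO library C and 1 to 8 without any other. Loss of Med5 called 0 of 135 on both scales (0.701% and 0.763%). An unadjusted p under 0.05 was reached by 8 on each, against 718 and 611 of all 4851 genes tested. The edgeR fit on recovered reads called 0 members, and the block 2 and 3. Together, Med1 and Med5 gave 110 of 135 lower (78%), with a median of −0.41 against −0.44. On the relative scale 0 were called (4.48%), and 3 had an unadjusted p under 0.05, against 747 of all 4781 genes tested. The 110 became 66 without 3IAA library B, 56 without 3IAA library C and 62 without DMSO library B. Depletion of the TID piece of Med14 called 0 of 133 on both scales (5.72% and 6.62%). At an unadjusted p under 0.05 there were 0 and 4, against 843 and 910 of all 4755 genes tested. With the block 4 and 8 members were called.

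After loss of Med9 members moved both ways on the deposited scale. Of 120 tested, 27 were higher (37.4%) and 26 lower (9.44%), and relative to all genes 12 were higher (23.2%) and 46 lower (27.4%). RPS4B, a copy of a small subunit gene, gave 50.3, 48.8 and 47.1 against 30.4, 26.2 and 29.9, a change of 0.74 ± 0.07, and RPS29B changed by 0.53 ± 0.10. RPL24A gave 14.1, 14.3 and 15.1 against 21.7, 20.2 and 21.4 (−0.52 ± 0.07). None of these 3 genes had overlapping libraries. Without 3IAA library C, DMSO library B or DMSO library C the calls were 41, 37 and 41, with more of them lower than higher.

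Deletion of MED15 raised 104 of 129 members on the deposited scale (87.6% of all genes), with a median of 0.29 against 0.52 for all genes, and lowered 1, RPL10 (5.28%). Relative to all genes none rose and 100 were lower (33.7%), with a relative median of −0.32. RPL10 gave 59.4, 52.2 and 47.3 against 60.4, 59.4 and 65.6, a change of −0.22 ± 0.08 and a relative change of −0.85 ± 0.07 (adjusted p = 6.33e-06). RPL30 rose most, with 29.8, 34.6 and 31.2 against 17.1, 20.5 and 17.0 (0.78 ± 0.09), then RPL18B (0.67 ± 0.10) and RPL22B (0.62 ± 0.08). The direction of most members thus depends on the scaling, and the relative count was 61 without WT library A and 63 without WT library B.

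Against Med15 depletion, whose controls are among those of the other profile, the deletion differed upward for 7 members (50.7% of all genes) and, on the relative scale, downward for 73 (17.4%). RPL10 differed most, by −0.79 ± 0.14. In med16del, which shares the WT libraries, 18 of 126 members were higher (28.9%), and RPL7B was lower (8.82%), with 11.0, 11.3 and 9.88 against 13.8, 14.5 and 12.3 (−0.31 ± 0.10). Relative to all genes 15 were lower (27.2%). RPL7B overlaps a snoRNA gene on its strand, as do RPL7A and RPS22B. These counts ran from 6 to 48 and from 3 to 44 when single libraries were left out.

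In the plasmid strains all members tested fell: 133 of 133 in med7N_del (99%), 133 of 133 in Med7_EWE3 (97%), 130 of 130 in Med21_EWE4 (98.3%) and 136 of 136 in Med6_delH1 (99.8%). In the 2 Med7 mutants they fell more than the typical gene, with medians of −1.29 against −1.05 and −1.39 against −1.06. Relative to all genes 72 were lower in med7N_del (16.5%), and in Med7_EWE3 78 were lower (26.7%) and 4 higher (19.6%), RPL6B, RPL16A, RPL13A and RPL17A. Both use the same Med7_WT libraries, whose ribosomal protein share was 2.57% ± 0.14 against 2.17% ± 0.08 and 2.20% ± 0.03. Without med7N_del library B the relative count of that mutant was 31.

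RPS31 in med7N_del gave 50.4, 48.5 and 46.9 against 172, 153 and 134 (−1.63 ± 0.12), and RPL8A changed by −1.57 ± 0.12. RPL24A in Med7_EWE3 gave 11.8 and 11.6 against 51.8, 50.6 and 43.3, a change of −1.96 ± 0.12, while RPL6B gave 41.5 and 34.9 against 58.7, 60.5 and 54.2 (−0.59 ± 0.13). In Med21_EWE4, 1 member was higher relative to all genes, RPS6B (4.96%), and 5 were lower (8.83%), RPL8A, RPL4A, RPL7B, RPL3 and RPS15. In Med6_delH1, RPL18B, RPS9A and RPS11B were higher (12.3%) and RPL8A lower (9.46%), with 89.2, 78.3 and 74.6 against 252, 228 and 248 (−1.58 ± 0.17). These relative calls rested on few libraries: the 6 of Med21_EWE4, with 2 libraries a group, became 2 without Med21_EWE4 library B and 0 without Med21_WT library A, and the 4 of Med6_delH1 became 9, mostly lower, without Med6_WT library A and 2 without Med6_WT library C or any mutant library.

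The stress libraries were compared as counts, scaled to CPM with TMM factors, so unlike the marker sums above these values need not give equal totals. The changes are relative to the typical gene, and a shift shared by all genes cannot be seen in them. In HS, 125 of 137 members rose and none fell (36.9% of all genes rose and 37.6% fell), with a median of 0.46, against 0.19 for other genes of like length. In SM, 127 rose (26.4%) and RPL15B fell (26.2%), with a median of 0.43 against −0.14. The members took 2.92% ± 0.08 (SD, n = 3) of counts in no_stress, 3.64% ± 0.20 in HS and 3.84% ± 0.14 in SM, without overlap between no_stress and either. As a check of the labels, the heat shock genes HSP26, SSA4 and HSP82 rose by 6.29, 4.34 and 2.78 in HS, and HIS4 and ARG1, of amino acid synthesis, by 1.96 and 1.84 in SM. Both stresses share the no_stress libraries, so the values are given side by side and not related to each other.

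RPS14B rose most in HS, with 225, 217 and 189 CPM against 93.5, 96.3 and 101 (1.12 ± 0.10, edgeR, adjusted p = 9.26e-09), then RPL9B (0.95 ± 0.08) and RPS30A (0.93 ± 0.06). In SM the order was led by RPL22B, whose splicing is known to be inhibited by Rpl22, with 236, 229 and 232 CPM against 104, 95.7 and 114 (1.16 ± 0.08). RPS9A (1.06 ± 0.07), RPL30 (1.02 ± 0.09) and RPS13 (0.85 ± 0.10) came next. RPL30 was not called in HS. RPL15B gave 55.7, 56.4 and 48.9 CPM in SM against 72.3, 86.6 and 73.9 (−0.53 ± 0.10), and all SM libraries were under all no_stress ones. RPL18B and RPS22B were called in neither stress.

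No IAA libraries without stress were counted beside these, so Med15 depletion was compared within each stress. In HS it lowered 131 of 137 (19.1% of all genes), with a median of −0.54, against −0.04 for other genes of like length. The share fell to 2.84% ± 0.27 from 3.64% ± 0.20. RPS14B gave 136, 96.5 and 112 CPM in IAA against 225, 217 and 189 in DMSO (−0.88 ± 0.10, adjusted p = 8.37e-07), RPL10 gave 473, 505 and 456 against 813, 803 and 856 (−0.79 ± 0.07) and RPL22A changed by −0.72 ± 0.06. In each of the 3, all IAA libraries were under all DMSO ones. The 6 members not called were RPL1A, RPL4A, RPL4B, RPL15B, RPL18B and RPS22B.

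In SM it lowered 69 members (27.1%) and raised 2, RPL30 and RPS13 (21%), with a median of −0.19, close to the −0.17 of other genes of like length. The call of RPS13 (0.24 ± 0.09, adjusted p = 0.0468) was lost without any of 5 of the 6 libraries and with no filter on low counts. RPL10 gave 502, 408 and 431 CPM against 745, 768 and 727 (−0.74 ± 0.07), and RPL30 gave 385, 334 and 396 against 289, 284 and 297 (0.36 ± 0.09). The number called, 71, was 37 without IAA library B and 43 without DMSO library B.

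The difference between both depletions, tested in the same edgeR fit, was lower in HS than in SM for 92 members (14%) and higher for 1, RPL15B (14.5%), with a median of −0.35. RPS14B (−0.69 ± 0.13), RPS9B (−0.65 ± 0.11) and RPL30 (−0.62 ± 0.13) differed most. RPL10 differed by −0.05 (adjusted p = 0.755), having fallen in both. The number was 59 without DMSO library C of SM or IAA library C of HS and 61 without IAA library A of SM. Single libraries therefore moved this count by over 1.5 times.

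**Figure D5:**
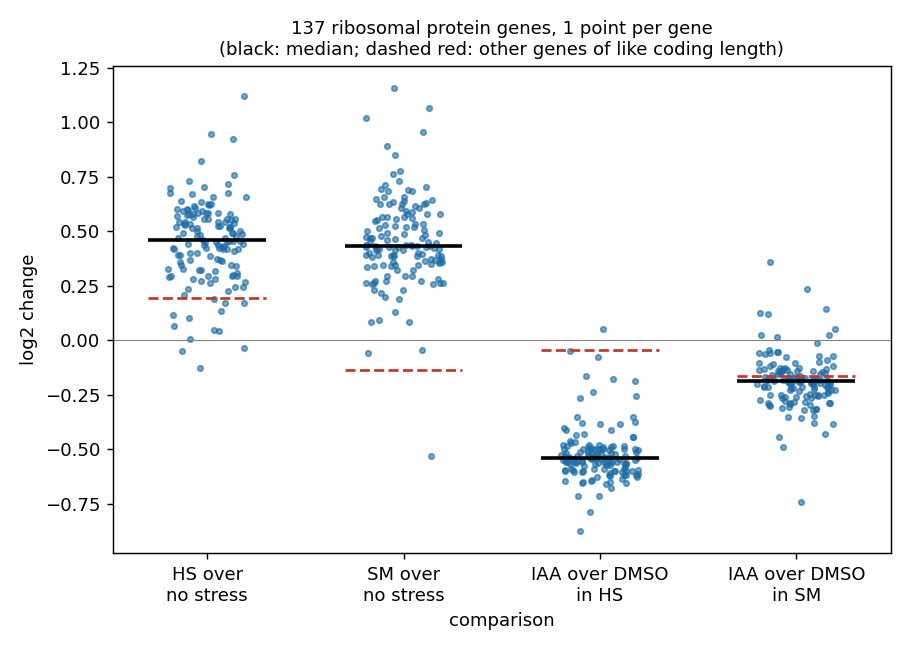
Log2 change (vertical axis) of the 137 ribosomal protein genes in the 4 stress comparisons (horizontal axis), with 1 point per gene, a black line at their median and a dashed red line at the median of other genes of like coding length. On these TMM-scaled counts the points lie mostly above 0 in HS and SM, and below 0 for Med15 depletion in HS with a median of −0.54.

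Of 13 regulators of these genes listed, 4 rose and 6 fell in HS (36.9% and 37.6% of all genes). Those that rose included ABF1 (0.85 ± 0.06) and HMO1 (0.64 ± 0.06), an architectural factor at these promoters, and those that fell included FHL1 (−0.78 ± 0.06), RAP1 (−0.62 ± 0.06), SFP1 (−0.57 ± 0.07) and IFH1 (−0.27 ± 0.08). Of 11 dedicated chaperones of ribosomal proteins none rose and 6 fell in HS, against the same shares, with SYO1, the chaperone of Rpl5 and Rpl11, at −1.38 ± 0.17 and PUF6 at −1.17 ± 0.11. In SM 8 regulators rose and 1 fell, and 8 chaperones rose (26.4% of all genes rose and 26.2% fell). After Ccl1 loss all 12 regulators tested were lower, with a median of −2.19, near the −2.18 of all genes, and 10 of 10 chaperones with −1.75. After loss of Med15 with Med16, 4 of 12 regulators and 8 of 11 chaperones were lower (15.9% of all genes).

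By class, genes with an intron fell slightly less than those without after strong depletions: −1.44 against −1.64 (Ccl1), −1.72 against −1.92 (Med14), −1.77 against −1.89 (Med10) and −2.39 against −2.52 (Med15 with Taf1). Whether intron reads were counted is not given in the sources used here. Large and small subunit genes had near-equal medians, −1.47 and −1.47 after Ccl1 loss and −1.79 and −1.77 after Med14 loss. Single-copy genes lay at −1.98 and paired ones at −1.76 after Med14 loss. Over 12 comparisons with separate control libraries, the members' changes correlated at a Spearman rho of −0.05 (Ccl1 and med7N_del) to 0.73 (Med10 and Med14C), with a median of 0.36 over 66 pairs of comparisons. This is a description across genes that share depth and library kit.

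Per kb of coding sequence, as the median over control groups, the members ran from 40.9 CPM-scaled signal units per kb for RPL1A to 1538 for RPS26A, a 37.6-fold range. Their median was 279, against 83.1 for all genes with a known coding length. RPS20 (1374), RPS27A (1286), RPL5 (1053) and RPS15 (973) followed RPS26A, and RPS6A (73.8) was next to the lowest. The order depended on the controls: in WT alone RPS26A (3549) was again the highest, but RPS27A (2909), RPL41A (2689) and RPL36B (2517) followed it, RPS20 was at 1732 and RPL5 at 1518, and RPS28B (103) and RPL15B (104) lay under RPL1A (160.6). RPL5 binds the 5S rRNA and RPS15 joins the small subunit late. These levels describe newly made RNA, and RPL1A shares 99.4% of its coding sequence with RPL1B, so its own level is uncertain.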

How the data were processed

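Newly made RNA was measured per gene in 177 libraries. The tools Bowtie2 and HTSeq and the builds sacCer3 and ASM294v2 are named, per the submitters' processing notes. How the signal was scaled, what the second build was for, strand use, versions and filters are not given in the sources used here. The authors deposited a signal per gene, written with 2 decimals, for 162 libraries. They deposited whole-number counts, which were not scaled, for the 15 stress libraries. In 106 signal libraries at least 96.5% of low values lay within 0.1 of a whole step, so that reads could be recovered; the precision of the other 56 is unknown. Replicates shared no identical files (0 pairs).

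The members, gene lists, motifs and tests were chosen with earlier results of these data known, so no list is independent evidence. Signal was tested with limma 3.58.1 in R 4.3.3 as log2(signal + 1), with its trend option, where a gene's mean signal reached 10. The fit was repeated after TMM scaling. Stress counts were tested with the quasi-likelihood test of edgeR 4.0.16, with TMM scaling, the filter filterByExpr and all 15 libraries in 1 fit. Two-sided p-values were adjusted over all genes tested in a comparison (Benjamini-Hochberg), with a threshold of 0.05. The 6 differences between changes were fitted over the libraries of both comparisons. In several comparisons limma estimated the spread of all genes as shared, which makes p-values on the deposited scale very small; the standard error is the better guide there. Named genes were the 3 highest and 3 lowest members of each comparison, the 6 pairs that parted most, members called against the majority and a fixed list of well-known members. RPL4A, RPL31A, RPL15A and RPS11B were further named, outside this rule, after their values were seen. Some results that this rule covers are not reported here.

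Same-letter libraries of treated and control groups were taken as paired where every pair's deviations from the group means correlated at over 0.1, which held in 15 of 32 comparisons. These were Med15 loss in HS, in SM and in the signal libraries, the pairs Med2_15, Med15_Taf1 and Med15_Med16, and Med17, Med16, Med14C, Med14, TID, Med10, Med7C, Med5 and CCL1. What a letter stands for is not in the labels. The main fits on both scales and of the stress counts left the letter out, also in the comparisons taken as paired. Their counts thus ignore this pairing, and the block was run only as an alternative. Alternatives were another pseudocount, other filters, median-ratio scaling, a replicate block, leaving out each library, DESeq2 1.42.0 for the stress counts and edgeR on recovered reads, which could be run in 11 comparisons and called from 63 genes (Med5) to 5120 (Med19). The limma test was also run on data simulated for Med16 and the edgeR test on data simulated for HS. Most genes were unchanged in these data, so they do not cover the comparisons in which almost all genes fell. Promoter windows and coding identities were computed with Python 3.11.15 and Biopython 1.88 from the RefSeq R64 genome rather than from a promoter table, and CCNTACA and TTACCCG were added after the sequences were seen. The Med15_Spt7 libraries in DMSO have no treated partner and entered no comparison.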

Additional observations from a re-analysis of the deposited data

Results flagged for a closer look

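The changes after Med15 depletion differed between HS and SM, by the edgeR test of the difference itself, for 92 members that were lower in HS and for 1 member, RPL15B, that was higher. The named genes among them were RPS14B, with a difference (HS minus SM) of −0.69 ± 0.13 (SE), RPS9B with −0.65 ± 0.11, RPL30 with −0.62 ± 0.13 and RPL15B with 0.54 ± 0.14. RPS14B was lower in 3 of 3 IAA libraries of HS, at 136, 96.5 and 112 CPM against 225, 217 and 189, and in SM it was at 125, 125 and 128 against 135, 154 and 139.7. Leaving out single libraries moved the number of members that differed from 93 to between 59 and 110. Groups of 3 libraries were not checked for a single far-lying value.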

How the results depend on the processing

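Pseudocount 5, median-ratio scaling and, where it could be run, edgeR on recovered reads kept every count of called members within 1.5 times of its value. So did DESeq2, its size factors and no count filter for the stress comparisons. The edgeR fit on recovered reads did not cover CCL1, Med10, Med14, Med14C, Med17 or Med15_Taf1. In these the depth of most or all treated libraries is not known. For single named genes, the scaling alternatives aside, no called change reversed: 4613 alternatives kept the sign and the call, 133 lost the call, 61 gained it, and 115 turned the sign of a change called in neither fit. Depth limits the low members, 29 of which were tested in fewer than all comparisons. The causes of the shifts below were not tested, except that a mean signal of at least 50 leaves fewer members to test.

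All values in this and the following paragraphs count members called in either direction, and the share of all genes is not given for them. At a mean signal of 50 fewer members were tested, so a lower count need not mean lost calls. Requiring a mean signal of 50 lowered the counts from 121 to 16 (CCL1), 27 to 14 (Med1), 110 to 58 (Med1_5), 127 to 26 (Med7C), 125 to 22 (Med7N), 53 to 8 (Med9), 127 to 32 (Med10), 11 to 6 (Med12), 134 to 37 (Med14), 129 to 22 (Med14C), 135 to 54 (Med15_Taf1), 111 to 11 (Med17), 128 to 34 (Med19), 126 to 25 (Med31), 105 to 9 (med15del), 19 to 0 (med16del), 133 to 50 (med7N_del), 133 to 57 (Med7_EWE3) and 130 to 35 (Med21_EWE4), and raised that of Med7 from 3 to 5. With no filter on low signal they went from 2 to 0 (CDK8), 27 to 7 (Med1), 3 to 0 (Med7), 11 to 4 (Med12) and 53 to 45 (Med9), where 20 were then higher and 25 lower. For differences between changes, TMM scaling turned the direction of most calls between Med15_Taf1 and Med15 (137 to 35), Med14 and Med15 (135 to 23) and the MED15 deletion and Med15 depletion (7 to 73). It moved the count from 42 to 70 between CCL1 and Med14 and from 9 to 0 between Med7C and Med7N.

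With the replicate letter as a block the counts went from 2 to 15 (CDK8), 27 to 42 (Med1), 0 to 2 (Med5), 14 to 30 (Med2_15), 11 to 25 (Med12), 0 to 4 (TID), 0 to 6 (Med16), 19 to 4 (med16del), 9 to 55 (Med7C against Med7N) and 7 to 4 (MED15 deletion against Med15 depletion). With the block and TMM scaling together the relative counts went from 5 to 20 (CDK8), 0 to 5 (Med1), 0 to 3 (Med5), 0 to 1 (Med1_5), 2 to 25 (Med2_15), 2 to 14 (Med7C), 0 to 8 (TID), 0 to 16 (Med15), 8 to 26 (Med16), 22 to 37 (Med31), 6 to 16 (Med21_EWE4) and 4 to 10 (Med6_delH1). The block moved no other count by over 1.5 times. CDK8, Med1, Med1_5, Med12, Med31, med16del, Med21_EWE4 and Med6_delH1 did not meet the pairing rule, so their libraries share only a letter.

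Leaving out 1 library at a time gave, on the deposited scale, 0 to 11 called members for CDK8 (2 with all libraries; 11 without 3IAA A, and 1, in the other direction, without DMSO A), 1 to 45 for Med1 (27; 45 without DMSO C and at most 8 without any other), 0 to 1 for Med5 (0), 56 to 109 for Med1_5 (110; lowest without 3IAA C, with 62 when DMSO B and 66 when 3IAA B was left out), 0 to 48 for Med2_15 (14; 48 without DMSO C), 0 to 6 for Med7 (3; 0 without DMSO B, 6 without DMSO C), 37 to 51 for Med9 (53), 1 to 14 for Med12 (11; 4 without 3IAA A, 1 without 3IAA B), 0 to 20 for Med15 (0; 20 without DMSO A), 63 to 124 for Med15_Med16 (121; 63 without 3IAA A, 80 without DMSO A), 0 to 3 for Med16 (0; 3 without DMSO C) and 6 to 48 for med16del (19; 48 without med16del C and at most 12 without any other). In Med9 the prevailing direction turned without 3IAA C (41), DMSO B (37) or DMSO C (41). Med15 loss in SM gave 37 to 74 (71; 37 without IAA B, 43 without DMSO B), and its difference from HS 59 to 110 (93; 59 without DMSO SM C or IAA HS C, 61 without IAA SM A). The relative counts were 3 to 16 for CDK8 (5), 0 to 1 for Med1 and for Med5 (0), 0 to 41 for Med2_15 (2; 41 without DMSO C), 0 to 6 for Med7 (1), 1 to 6 for Med7C (2), 21 to 49 for Med7N (40; 22 without 3IAA A, 21 without DMSO A), 23 to 55 for Med12 (57; 23 without 3IAA B), 0 to 2 for Med15 (0), 2 to 8 for Med16 (8; 3 without 3IAA A, 4 without DMSO A, 2 without DMSO B), 11 to 35 for Med19 (21; 35 without 3IAA A, 11 without DMSO C, and 18, mostly in the other direction, without 3IAA C), 6 to 29 for Med31 (22; 9 without 3IAA A, 12 without 3IAA B, 6 without DMSO B), 61 to 113 for med15del (100), 3 to 44 for med16del (15; 44 without WT C and 3 to 6 without med16del B, med16del C, WT A or WT B), 31 to 83 for med7N_del (72; 31 without med7N_del B), 0 to 7 for Med21_EWE4 (6; 2 without Med21_EWE4 B, 0 without Med21_WT A) and 2 to 9 for Med6_delH1 (4; 9, mostly in the other direction, without Med6_WT A, and 2 without Med6_WT C or any mutant library). Where this left 1 library in a group, its spread was taken from the other group.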
